A study of Mus musculus with 17 samples.

Results

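CD8 T cells in which Dnmt3a had been targeted were compared with cells in which Rosa had been targeted, across all measured genes. The comparison holds 4 libraries labelled Dnmt3a KO and 5 libraries labelled Rosa KO, chosen by their genetic modification label, and together they make up 9 of the 17 RNA-seq libraries of the series. All cells were CD8+Thy1.1+ T cells from mouse spleen, so both groups carried the congenic marker Thy1.1. The labels give no strain, age, sex, antigen, treatment or time point, and do not say how the knockout was made or what share of cells carried it. The 8 other libraries, 4 labelled Asxl1 KO and 4 labelled Tet2 KO, entered the model and are compared directly with Dnmt3a KO at the end. The title of the series places these genes among the regulators of clonal haematopoiesis and asks about the stemness of CD8 T cells.

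Dnmt3a is a de novo DNA methyltransferase that adds methyl groups to cytosine, mostly at CG dinucleotides. In CD8 T cells responding to antigen it is known for methylating genes of the naive and memory state as cells become effectors, Tcf7 among them. Tcf7 encodes TCF-1, the transcription factor that marks stem-like and memory CD8 T cells, while Zeb2, with T-bet, drives terminal effector differentiation. Late effector cells are also known for cytotoxic granules, for NK cell receptors such as KLRG1, and for S1PR5, a sphingosine phosphate receptor that carries cells out of tissue. The locus named Rosa is a common target for control edits, since its disruption is well tolerated in mice.

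Total counts ran from 21642477 to 27248878 in the Dnmt3a KO libraries and from 6625833 to 40701203 in the Rosa KO libraries. By their library numbers the samples fell into 3 runs, which the labels do not call batches. Run 1 held Rosa KO 1 with Dnmt3a KO 1 and 2, run 2 held Dnmt3a KO 3 and 4 without Rosa KO, and run 3 held Rosa KO 2 to 5 without Dnmt3a KO. Group and run are thus tied, and the model with both as terms links runs 2 and 3 through the Asxl1 KO and Tet2 KO libraries. Rosa KO 1 stood apart from the other Rosa KO libraries in many genes, and values within run 1, a fit with 1 residual degree of freedom, are given beside the results. Whether replicates are separate animals is not stated in the labels, and p-values thus cover only library-to-library spread, possibly technical. In bulk RNA, fewer cells of a type and less RNA per cell cannot be told apart.

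Transcripts of CD8 T cells were present in both groups, beside those of other cell types. Cd8a, a chain of the CD8 co-receptor, was at 641 to 966 CPM (counts scaled by TMM to a common library size) in Rosa KO and at 756 to 977 CPM in Dnmt3a KO. Thy1, the carrier of the Thy1.1 allele, was detected in all 9 libraries. It was at 480 to 649 CPM in Rosa KO and 340 to 446 CPM in Dnmt3a KO, without overlap. The log2 fold change of Thy1, Dnmt3a KO over Rosa KO, was -0.48 and did not pass (adjusted p = 0.707). Il17a, a product of gamma delta and helper T cells, was at 0 in all 9. The transcript of the targeted gene did not separate the groups: Dnmt3a (NCBI gene 13435, mm10 chromosome 12, 3801559 to 3914443) was at 103, 57.4, 27.6, 72.3 and 64.1 CPM in Rosa KO 1 to 5 and at 88.1, 71.7, 115 and 76.3 CPM in Dnmt3a KO 1 to 4. The groups overlapped, and the log2 fold change of Dnmt3a KO over Rosa KO was -0.06 (SE 0.28, adjusted p = 0.978). Counts over the whole gene do not show a small edit in the coding sequence, and the gene overlaps an antisense gene, Dnmt3aos, so its level does not test the label.

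S1pr5, Zeb2, granzymes and several receptors of NK cells fell in Dnmt3a KO, and Tcf7 rose. Of 13881 genes tested, 30 passed an adjusted p of 0.05, a share of 0.216%, of which 25 (0.18%) were lower in Dnmt3a KO and 5 (0.036%) were higher. All 30 kept their direction in run 1, where Dnmt3a KO 1 and 2 stood beside Rosa KO 1. The libraries of run 1 also entered the fit that chose these genes, so the shared direction is not an independent check. Of the 29 with a gene symbol, only 12 passed over the 9 libraries alone, a fit in which run 1 also sets the fold change. The CPM of the groups did not overlap for 23 of the 30, against 4.03% of the genes tested, 2.01% with Dnmt3a KO below and 2.02% with it above. The test that chose the 30 used the same libraries, so their separation is no added support. The 25 lower genes included receptors of NK cells (Klrb1c, Klra9, Klrc1, Klrc2, Klre1, Klrk1, Klrg1), the egress receptor S1pr5, the transcription factor Zeb2, granzymes and Fas ligand. The 5 higher genes were Tcf7, Cxcl10, Ttn, Kbtbd11 and Dut. At an unadjusted p under 0.05 the count was 1115 genes, 8.03% of those tested. Without Rosa KO 1 the test called 36 genes, 21 of them shared with the 30, and without Dnmt3a KO 3 and 4 it called 8 genes, 6 of them shared.

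**Figure D1:**
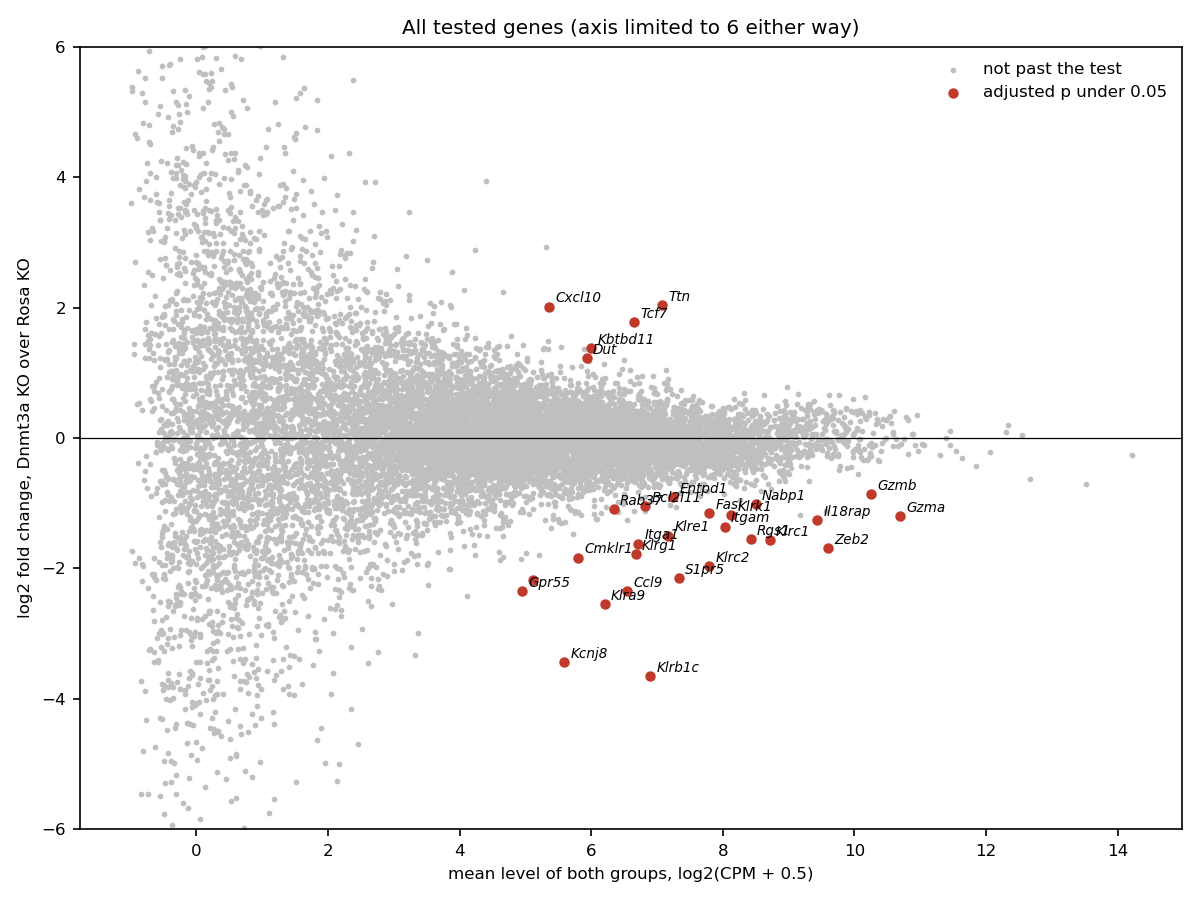
Log2 fold change of Dnmt3a KO over Rosa KO (vertical axis) against the mean level of both groups as log2(CPM + 0.5) (horizontal axis), with 1 point for each tested gene. The 30 genes that passed are red, and Klrb1c and Kcnj8 lie lowest among them while Ttn and Cxcl10 lie highest.

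**Figure D2:**
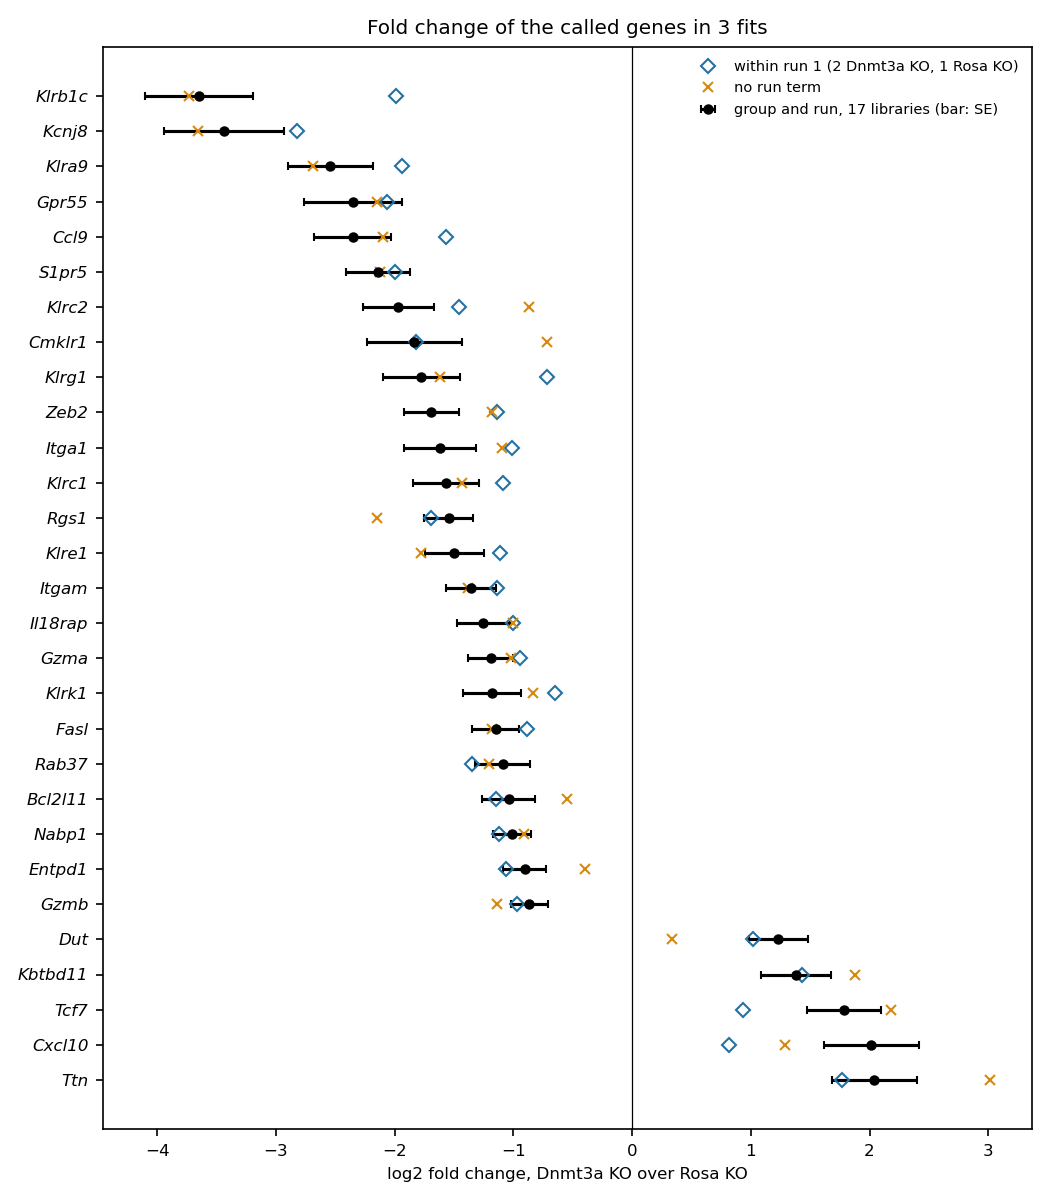
Log2 fold change of the 29 called genes that carry a gene symbol, in the model with group and run over 17 libraries (black, bars are standard errors), within run 1 (diamonds) and without the run term (crosses). No gene changes sign, while Klrb1c, Klrg1, Tcf7 and Cxcl10 are smaller within run 1, where Rosa KO 1 is the only control library.

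The strongest evidence by p lay with an egress receptor. S1pr5 (NCBI gene 94226, chromosome 9, 21242917 to 21248443) was at 191, 220, 335, 316 and 245 CPM in Rosa KO 1 to 5 and at 47.8, 47.5, 61.5 and 83.1 CPM in Dnmt3a KO 1 to 4. Every Dnmt3a KO library lay below every Rosa KO library. The fold change was -2.14 on the log2 scale (SE 0.27, adjusted p = 0.00038), a 4.42-fold lower level. S1pr5 was also lower within run 1 (log2 fold change -2.002, adjusted p = 0.0271) and without Dnmt3a KO 3 and 4 (-2.26, adjusted p = 0.00652). Of 24 tested genes of egress, homing and adhesion, 3 fell and none rose, a share of 12.5% against 0.216% of all tested genes. Their median log2 fold change was -0.30, against -0.003 over all genes. The other members that fell were integrin subunits: Itgam, the CD11b chain that effector T cells share with myeloid cells, fell by 1.36 (adjusted p = 0.00131), and Itga1, a collagen-binding chain, fell by 1.62 (adjusted p = 0.0124). Itga1 shares its locus with Pelo, so its reads are uncertain. Within run 1 Itgam was at -1.14 (adjusted p = 0.3015) and Itga1 at -1.01 (adjusted p = 0.4555) on the log2 scale. The Itga1 call was also lost without the run term (-1.10, adjusted p = 0.251) and without Dnmt3a KO 3 (-1.465, adjusted p = 0.0606) or Dnmt3a KO 4 (-1.58, adjusted p = 0.0578). Cx3cr1, a fractalkine receptor of late effector cells, had a log2 fold change of -0.94 that did not pass (adjusted p = 0.271).

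Among transcription factors, Zeb2 fell and Tcf7 rose. Zeb2 (NCBI gene 24136, chromosome 2, 44983512 to 45117442) was at 758, 1134, 1107, 1040 and 1366 CPM in Rosa KO 1 to 5 and at 402, 286, 650 and 567 CPM in Dnmt3a KO 1 to 4. The lowest control, Rosa KO 1, stayed above the highest Dnmt3a KO library. The log2 fold change was -1.69 (SE 0.23, adjusted p = 0.000421), and -1.14 within run 1 (adjusted p = 0.108). Without the run term it was -1.18 and no longer passed (adjusted p = 0.15), and the gene overlaps its antisense partner Zeb2os.

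Tcf7 (NCBI gene 21414, chromosome 11, 52246527 to 52283383) was at 102, 17.3, 14.2, 22.7 and 24.6 CPM in Rosa KO 1 to 5 and at 181, 206, 129 and 141 CPM in Dnmt3a KO 1 to 4. Every Dnmt3a KO library was above every Rosa KO library, but Rosa KO 1 was far above the other controls. The log2 fold change was 1.79 (SE 0.31, adjusted p = 0.0051), a 3.45-fold rise, and it was 2.11 without Rosa KO 1 (adjusted p = 0.00513). Within run 1 the log2 fold change was 0.93 and did not pass (adjusted p = 0.324), and without the run term it was 2.18 and did not pass (adjusted p = 0.183). Reads of Skp1, which overlaps Tcf7, could have been counted with it.

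The other transcription factors of both programmes did not pass. Of 15 tested effector factors, 1 fell (Zeb2) and none rose, a share of 6.67% against 0.216% of all tested genes. Their median log2 fold change was -0.41, which without the run term was 0.03. Id2, which supports effector survival, was at 517 to 842 CPM in Rosa KO and 255 to 391 CPM in Dnmt3a KO. These ranges did not overlap, yet its log2 fold change of -0.58 did not pass (adjusted p = 0.297). Tbx21, which encodes T-bet, had a log2 fold change of -1.01 (adjusted p = 0.319). Of 16 stem-like and memory factors, 1 rose (Tcf7, a share of 6.25%), none fell, and the median was -0.04. Lef1, the closest relative of Tcf7, had means of 50.8 CPM in Rosa KO and 51 CPM in Dnmt3a KO (log2 fold change -0.67, adjusted p = 0.636). Eomes, a T-box factor of memory and exhausted cells, was at 72.4 to 201 CPM in Rosa KO and 170 to 274 CPM in Dnmt3a KO (log2 fold change 0.57, adjusted p = 0.505).

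**Figure D3:**
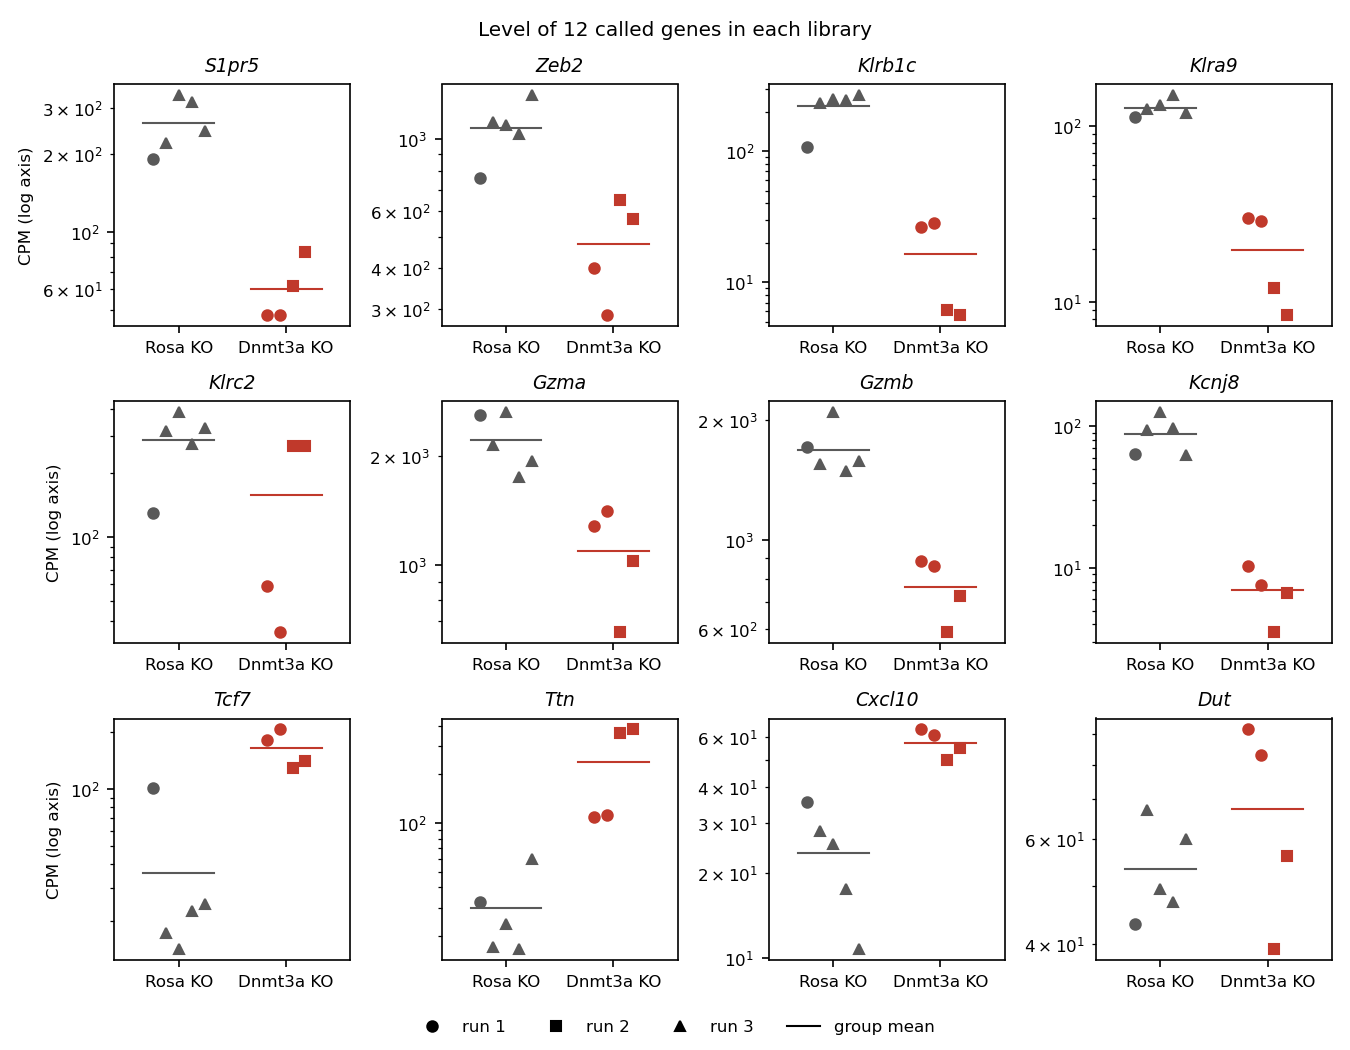
CPM on a log axis of 12 called genes in each library, for Rosa KO (grey) and Dnmt3a KO (red). Symbols mark the run, lines the group mean. Klrb1c, Tcf7 and Zeb2 show Rosa KO 1 (grey circle) nearest to the Dnmt3a KO libraries, Klrc2 shows the run 2 Dnmt3a KO libraries within the Rosa KO range, and Dut overlaps.

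Receptors of the NK gene complex, lectin-like proteins that NK cells and late effector CD8 T cells use to sense ligands on target cells, held the largest share of the lower genes. Of 17 tested members of the list of NKG2, KLRG1 and NKR-P1 receptors, 6 fell and none rose. This is a share of 35.3%, against 0.216% of all tested genes, and the median log2 fold change was -0.98. The list is wider than the NK gene complex, since it also holds Cd244a, which lies on chromosome 1. Neither Cd244a nor Cd160, also on the list, passed. The summed level of the list was 1480 to 3120 CPM in Rosa KO, with Rosa KO 1 lowest, and 833 to 1460 CPM in Dnmt3a KO. Without Rosa KO 1 all 6 passed, while without Dnmt3a KO 3 and 4 only 1 of them did, Klrb1c.

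Klrb1c, which encodes the NKR-P1C receptor known as NK1.1 (NCBI gene 17059, chromosome 6, 128778485 to 128788641), was at 108, 234, 248, 247 and 266 CPM in Rosa KO 1 to 5 and at 26.2, 28.4, 6.11 and 5.59 CPM in Dnmt3a KO 1 to 4. The groups were far apart, and the run 2 libraries of Dnmt3a KO were lowest. The log2 fold change was -3.65 (SE 0.46, adjusted p = 0.000421), a 12.5-fold lower level, and within run 1 it was -1.99 (adjusted p = 0.102). Klrc2, an activating NKG2 chain, was at 130, 316, 385, 275 and 327 CPM in Rosa KO 1 to 5 and at 58.8, 35.5, 267 and 267 CPM in Dnmt3a KO 1 to 4. It overlapped between the groups because Dnmt3a KO 3 and 4 lay above Rosa KO 1. Its log2 fold change was -1.97 (adjusted p = 0.00152), and without the run term it was -0.87 and did not pass (adjusted p = 0.774). Klrc1, the inhibitory NKG2A chain, fell by 1.57 (adjusted p = 0.00881), from 390 to 741 CPM in Rosa KO to 167 to 298 CPM in Dnmt3a KO. Klrg1, an inhibitory receptor that marks short-lived effector cells, was at 98.8 to 195 CPM in Rosa KO and 25.6 to 67.5 CPM in Dnmt3a KO, and its log2 fold change was -1.78 (adjusted p = 0.00881). Klre1, a partner chain in NK receptor dimers, fell by 1.497 (adjusted p = 0.00391), and Klrk1, which encodes the stress ligand receptor NKG2D, fell by 1.18 (adjusted p = 0.0273). Within run 1 none of these calls held, at log2 fold changes of -1.46 for Klrc2 (adjusted p = 0.303), -1.08 for Klrc1 (adjusted p = 0.118), -0.72 for Klrg1 (adjusted p = 0.67), -1.12 for Klre1 (adjusted p = 0.423) and -0.65 for Klrk1 (adjusted p = 0.552). Over the 9 libraries alone the fold change also comes from run 1, the only run with both groups, so it is not a separate check. In that fit Klrg1 was at -0.72 (adjusted p = 0.646), Klre1 at -1.115 (adjusted p = 0.105) and Klrk1 at -0.64 (adjusted p = 0.331). Klrk1 was lost without the run term as well (-0.83, adjusted p = 0.337) and in the 7 fits that left out Rosa KO 2, 3, 4 or 5 or Dnmt3a KO 1, 2 or 3 (adjusted p from 0.0572 to 0.119), and Klrc1 without Dnmt3a KO 1 (-1.515, adjusted p = 0.064). Klrd1, the CD94 partner of the NKG2 chains, did not pass (log2 fold change -0.57, adjusted p = 0.486).

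Among Ly49 receptors, which bind class I MHC in mice, 1 of 12 tested members fell (8.33%, against 0.216% of all tested genes). The median log2 fold change was -1.42. Klra9 (chromosome 6, 130178626 to 130194374) was at 112, 124.1, 132.1, 149 and 118 CPM in Rosa KO 1 to 5 and at 29.7, 28.6, 11.9 and 8.34 CPM in Dnmt3a KO 1 to 4. Its ranges lay well apart, and it fell by 2.54 on the log2 scale (SE 0.36, adjusted p = 0.000456), and by 1.94 within run 1. The family has near-identical members, so reads could have been split among them. The summed Ly49 level was 174 to 236 CPM in Rosa KO and 40.6 to 81.9 CPM in Dnmt3a KO, without overlap.

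By position, chromosome 6 held 8 of the 25 lower genes, 32% of them, against 5.1% of the genes tested. Between 128706093 and 131247716 on chromosome 6, the stretch that holds its clustered Klr genes but not Klrg1 or Klrg2, 25 Klr genes were tested, of which 6 fell and 20 had a negative log2 fold change, with a median of -0.98. The 15 other tested genes of the same stretch had a median of 0.14, and 0 of them passed. Kcnj8, which also lies on chromosome 6 but outside that stretch, encodes a pore subunit of ATP-sensitive potassium channels and had the second lowest log2 fold change of the genes that passed. It was at 63.4, 94.3, 124.9, 96.6 and 62.7 CPM in Rosa KO 1 to 5 and at 10.3, 7.53, 3.51 and 6.60 CPM in Dnmt3a KO 1 to 4. The gap between the groups was wide in every library, and the log2 fold change was -3.44 (SE 0.51, adjusted p = 0.0013), a 10.8-fold lower level. Within run 1 it was -2.825 and did not pass (adjusted p = 0.0872).

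Because NK cells carry many of the same receptors, markers of NK cells were set beside these falls. The 14 NK markers in the files summed to 3100 to 4100 CPM in Rosa KO and 1260 to 2180 CPM in Dnmt3a KO. Gzma, at means of 2214 and 1092 CPM, was the largest part of this sum. Of the 14, 4 fell (Klrb1c, Klra9, Klre1, Gzma), a share of 28.6% against 0.216% of all tested genes. These 4 belong to the called set, so neither the sum nor the share is added support. Of the 14, 11 had a negative log2 fold change, 8 were lower and 1 higher at an unadjusted p under 0.05, and the median was -1.12. Over all tested genes, 8.03% had such a p in either direction. Il12rb2 (-1.87, adjusted p = 0.0876), Itga2 (-1.385, adjusted p = 0.311) and Cd244a (-1.05, adjusted p = 0.315) did not pass. Ncr1, the defining NK cell receptor NKp46, was at 0 to 2.94 CPM in Rosa KO and at 1.06 to 10.6 CPM in Dnmt3a KO. Tyrobp, an adaptor of NK and myeloid cells, was at 52.9 to 105 CPM in Rosa KO and 46.8 to 109 CPM in Dnmt3a KO. Ncr1 (log2 fold change -0.40, adjusted p = 0.98) and Tyrobp (0.20, adjusted p = 0.962) did not pass. Fcer1g (0.22, adjusted p = 0.96) and Eomes (0.57, adjusted p = 0.505), the 1 higher at an unadjusted p under 0.05, did not pass either. The part of NK cells in the falls was not tested.

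Cytotoxic genes fell in part. Of 21 tested granzymes and granule genes, 3 fell and none rose, a share of 14.3% against 0.216% of all tested genes. Their median log2 fold change was -0.14. Gzma, a granule protease, was at 2596, 2145, 2642, 1747 and 1940 CPM in Rosa KO 1 to 5 and at 1283, 1408, 651 and 1026 CPM in Dnmt3a KO 1 to 4. The lowest Rosa KO library was above the highest Dnmt3a KO library, and the log2 fold change was -1.19 (SE 0.19, adjusted p = 0.0019). Gzmb, the granzyme that triggers caspases in the target cell, was at 1717, 1556, 2090, 1488 and 1577 CPM in Rosa KO 1 to 5 and at 889, 861, 587 and 723 CPM in Dnmt3a KO 1 to 4. It too was separated and fell by 0.87 (SE 0.16, adjusted p = 0.00685). Fasl, the ligand of the death receptor Fas, was at 257 to 327 CPM in Rosa KO and 130 to 143 CPM in Dnmt3a KO, with little spread in either group, and fell by 1.15 (adjusted p = 0.0051). Prf1, which encodes the pore protein perforin, was at 261 to 426 CPM in Rosa KO and 169 to 357 CPM in Dnmt3a KO and did not pass (log2 fold change -0.48, adjusted p = 0.667). Gzma overlaps Cdc20b in the annotation. Without Dnmt3a KO 3 and 4 none of the 3 passed by edgeR, and within run 1 Gzma (-0.95, adjusted p = 0.0449) and Gzmb (-0.97, adjusted p = 0.0413) passed while Fasl did not (-0.88, adjusted p = 0.3015). Gzma was lost without the run term (-1.02, adjusted p = 0.0941) and Gzmb without Rosa KO 1 (-0.84, adjusted p = 0.0565).

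Of 24 tested effector cytokines and their receptors, 1 fell, a share of 4.17% against 0.216% of all tested genes. This was Il18rap, a chain of the interleukin 18 receptor. It was at 472, 1069, 993, 956 and 1131 CPM in Rosa KO 1 to 5 and at 206, 264, 637 and 732 CPM in Dnmt3a KO 1 to 4. The run 2 libraries of Dnmt3a KO lay above Rosa KO 1, so the groups overlapped. Its log2 fold change was -1.26 (SE 0.22, adjusted p = 0.00685). The call was lost within run 1 (-1.004, adjusted p = 0.162), without the run term (-1.01, adjusted p = 0.386) and without Dnmt3a KO 1 (-1.16, adjusted p = 0.0501). Ifng, the interferon gamma gene, was at 81.9 CPM in Rosa KO 1 and at 398 to 423 CPM in the other Rosa KO libraries, beside 72.6 to 128 CPM in Dnmt3a KO. The level of Ifng in the control of run 1 thus lay inside the Dnmt3a KO range, and the log2 fold change of -0.59 did not pass (adjusted p = 0.685).

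Chemokine ligands and chemoattractant receptors split by direction. Of 23 tested, 3 fell and 1 rose (17.4% together, against 0.216% of all tested genes), with a median log2 fold change of -0.40. Ccl9, a chemokine that draws myeloid cells, was at 126.5, 148, 192, 137 and 150 CPM in Rosa KO 1 to 5 and at 31.8, 53.5, 23.9 and 32 CPM in Dnmt3a KO 1 to 4. Its groups were clearly separated (log2 fold change -2.35, SE 0.32, adjusted p = 0.000421). Gpr55, a receptor for lysophosphatidylinositol, was at 70.3, 51.9, 38, 49.9 and 37.6 CPM in Rosa KO 1 to 5 and at 18, 15.5, 2.81 and 8.37 CPM in Dnmt3a KO 1 to 4. It fell without overlap (log2 fold change -2.35, SE 0.41, adjusted p = 0.00582). Cxcl10, an interferon-induced ligand of CXCR3, was at 35.6, 28.2, 25.2, 17.4 and 10.7 CPM in Rosa KO 1 to 5 and at 63.9, 61.2, 49.8 and 54.9 CPM in Dnmt3a KO 1 to 4. All Dnmt3a KO libraries were above all Rosa KO libraries (log2 fold change 2.02, SE 0.40, adjusted p = 0.0203). Within run 1 the log2 fold change of Cxcl10 was 0.81. The Cxcl10 call was lost over the 9 libraries alone, where run 1 also sets the fold change (0.82, adjusted p = 0.743). Without the run term the call was lost too (1.29, adjusted p = 0.337). It was also lost without Rosa KO 4 (adjusted p = 0.0539), Dnmt3a KO 3 (adjusted p = 0.0542) or Dnmt3a KO 4 (adjusted p = 0.0682), at log2 fold changes of 1.86 to 1.94. Within run 1 Ccl9 was at -1.57 (adjusted p = 0.287) and Gpr55 at -2.07 (adjusted p = 0.167), and without the run term Gpr55 was at -2.15 (adjusted p = 0.0679). Cmklr1, the receptor of chemerin, barely passed (adjusted p = 0.05 after rounding), with a log2 fold change of -1.83. Rosa KO 1 stood at 162 CPM, beside 35.7 to 57.8 CPM in the other controls and 36.6 to 53.2 CPM in Dnmt3a KO, so the groups overlapped. Without Rosa KO 1 its log2 fold change was -2.08 and did not pass (adjusted p = 0.0565), and without the run term it was -0.72 (adjusted p = 0.793). It passed in none of the 9 fits with a Rosa KO or Dnmt3a KO library left out (adjusted p from 0.0542 to 0.247).

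The letters before the start sites of 4 of these genes are shown because CG is the dinucleotide that Dnmt3a methylates, with every CG in capitals and all other bases in lower case. Each is the 250 bases before the annotated start, 5′ to 3′ on the strand of the gene, from RefSeq on GRCm38.p6. All 4 genes lie on the minus strand, in the windows chr9:21248444-21248693 for S1pr5, chr2:45117443-45117692 for Zeb2, chr6:128788642-128788891 for Klrb1c and chr5:92348890-92349139 for Cxcl10.
S1pr5: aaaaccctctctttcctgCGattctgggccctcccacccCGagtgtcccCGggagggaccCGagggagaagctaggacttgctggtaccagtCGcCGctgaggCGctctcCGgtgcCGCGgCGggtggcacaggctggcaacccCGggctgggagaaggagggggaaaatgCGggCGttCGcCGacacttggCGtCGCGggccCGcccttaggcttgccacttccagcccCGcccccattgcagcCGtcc
Zeb2: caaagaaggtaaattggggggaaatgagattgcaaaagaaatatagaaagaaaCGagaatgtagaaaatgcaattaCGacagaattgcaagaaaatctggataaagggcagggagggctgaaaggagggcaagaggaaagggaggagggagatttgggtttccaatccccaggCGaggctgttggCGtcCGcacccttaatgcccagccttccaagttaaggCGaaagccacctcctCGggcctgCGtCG
Klrb1c: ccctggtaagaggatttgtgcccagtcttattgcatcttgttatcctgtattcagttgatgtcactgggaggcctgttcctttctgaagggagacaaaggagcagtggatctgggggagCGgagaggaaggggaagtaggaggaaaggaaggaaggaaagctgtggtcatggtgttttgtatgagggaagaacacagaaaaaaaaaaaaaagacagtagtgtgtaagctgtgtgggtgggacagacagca
Cxcl10: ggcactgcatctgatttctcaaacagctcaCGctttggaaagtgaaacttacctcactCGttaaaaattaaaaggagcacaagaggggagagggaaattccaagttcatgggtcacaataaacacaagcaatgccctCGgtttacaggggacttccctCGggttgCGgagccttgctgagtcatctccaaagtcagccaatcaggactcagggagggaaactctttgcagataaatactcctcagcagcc
S1pr5 had 22 CG in this window, Zeb2 9, Cxcl10 5 and Klrb1c 1, so the windows of genes that fell ranged from CG-rich to nearly CG-free. For Zeb2, 4 promoter windows were listed, and only that at the outer start was counted. A window at the outer start of the gene was listed for 14 of the 25 lower genes, with a median of 6 CG, and for 7658 of the 13881 tested genes, with a median of 14 CG. The genes Ttn and Cxcl10 were the higher genes with such a window, at 4 and 5 CG. The other 14 called genes, Tcf7 among them, had none. The letters GGTGTGA, a T-box motif, and CTTTGAT, a TCF/LEF motif, were in none of the 16 windows on either strand, and stood in 2.87% and 2.42% of the tested windows. CAGGTG, an E-box bound by ZEB factors, was in those of Gzma, Entpd1 and Ttn and in 15.5% of the tested windows. No methylation was measured here.

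Among genes of terminal exhaustion, Rgs1 and Entpd1 passed. Of 26 tested inhibitory receptors and exhaustion genes, 2 fell and none rose, a share of 7.69% against 0.216% of all tested genes. Their median log2 fold change was -0.11. Rgs1, which damps chemokine receptor signals, was at 301, 609, 786, 536 and 567 CPM in Rosa KO 1 to 5 and at 87.1, 98.8, 167 and 152 CPM in Dnmt3a KO 1 to 4. It was lower in every Dnmt3a KO library (log2 fold change -1.55, SE 0.20, adjusted p = 0.000421), also within run 1 (-1.70, adjusted p = 0.0271). Entpd1, the ectonucleotidase CD39 of terminally exhausted cells, was at 322, 134.4, 153, 125.3 and 127.5 CPM in Rosa KO 1 to 5 and at 147, 162, 98.8 and 116 CPM in Dnmt3a KO 1 to 4. Here the groups overlapped apart from Rosa KO 1, the highest. Its fall of 0.90 (adjusted p = 0.021) did not hold without Rosa KO 1 (log2 fold change -0.87, adjusted p = 0.0974), within run 1 (-1.06, adjusted p = 0.134), without the run term (-0.40, adjusted p = 0.756) or without Dnmt3a KO 1, 2 or 3 (adjusted p of 0.119, 0.0978 and 0.0542). The exhaustion factor Tox was at 1142 CPM in Rosa KO 1, 437 to 538 CPM in the other Rosa KO libraries and 811 to 1068 CPM in Dnmt3a KO, with a log2 fold change of -0.01 (adjusted p = 0.992), and 0.58 without the run term. The checkpoint receptors Pdcd1 (0.16, adjusted p = 0.91), Lag3 (0.51, adjusted p = 0.576) and Havcr2 (-0.29, adjusted p = 0.792) did not pass on the log2 scale.

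No surface gene of stem-like and memory cells passed, which in a list of this size is near the 0.216% of all tested genes. Of 20 tested, 0 passed by edgeR, 8 had an unadjusted p under 0.05 (7 higher, 1 lower) and DESeq2 called 3 higher. Their median log2 fold change was 0.55. Over all 13881 tested genes, 536 were higher and 579 lower at that unadjusted p, 8.03% together. Slamf6, a SLAM family receptor of progenitor exhausted cells, was at 56, 74.7, 111, 70.7 and 64.4 CPM in Rosa KO 1 to 5 and at 130, 144, 215 and 185 CPM in Dnmt3a KO 1 to 4. Its ranges did not overlap, but the log2 fold change of 0.96 did not pass (SE 0.28, adjusted p = 0.233). Il7r, the survival receptor of memory cells, was at 13.9 to 64.6 CPM in Rosa KO and 85.9 to 141 CPM in Dnmt3a KO, also without overlap (log2 fold change 0.55, adjusted p = 0.826). Nsg2 (2.05, adjusted p = 0.104), Xcl1, the ligand of the XCR1 receptor of dendritic cells (1.91, adjusted p = 0.104), and the costimulatory receptor Icos (0.79, adjusted p = 0.118) were the members with the smallest p. Of 13 costimulatory receptors, 0 passed by edgeR, 5 had an unadjusted p under 0.05, and DESeq2 called 2 higher and 1 lower. Of 24 genes of the CD3 complex and T cell receptor signalling, 0 passed by edgeR or DESeq2, and the median was 0.14. Of these 2 had an unadjusted p under 0.05, near the share over all tested genes.

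**Figure D4:**
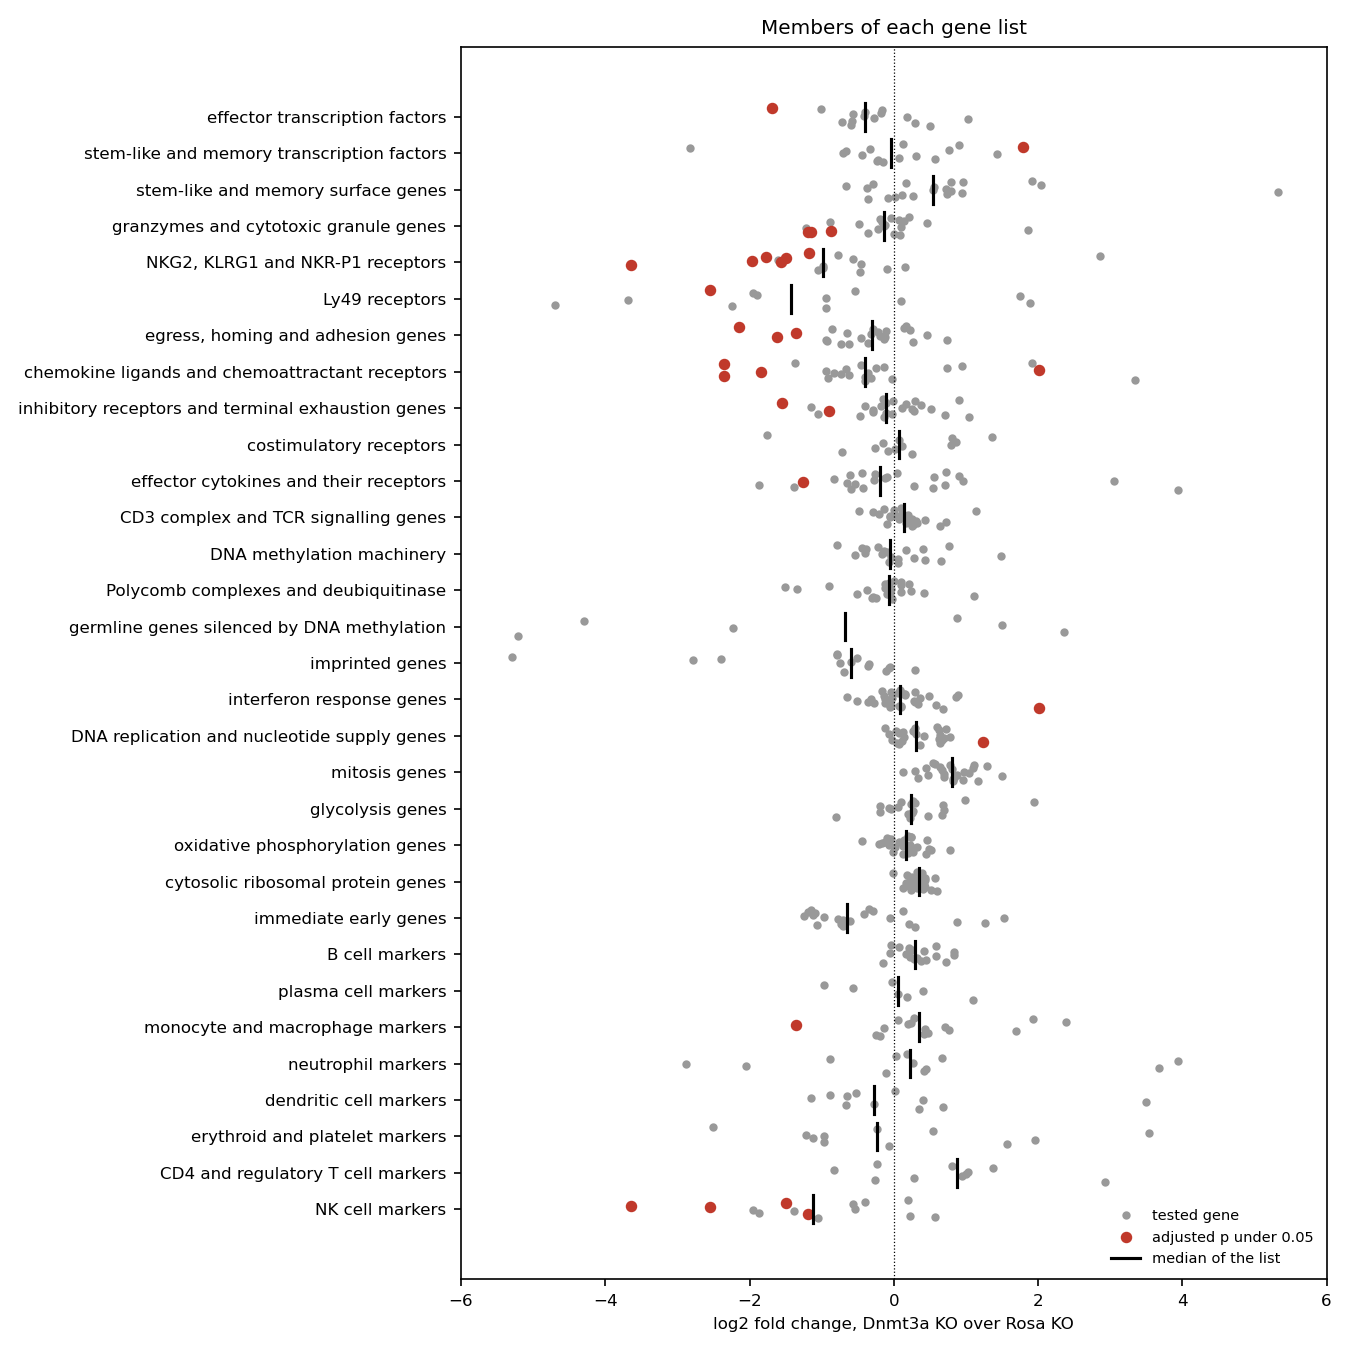
Log2 fold change of Dnmt3a KO over Rosa KO for the tested members of each gene list, with 1 point per gene, red where the adjusted p was under 0.05, and a bar at the list median. The NKG2, KLRG1 and NKR-P1 list holds 6 red points with a median of -0.98, and the mitosis list lies wholly above 0 with no red point.

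Genes outside these groups made up the rest of the called set. Ttn, best known for the giant muscle protein titin, was at 32.4, 17, 23.8, 16.5 and 59.5 CPM in Rosa KO 1 to 5 and at 109, 112, 358 and 378 CPM in Dnmt3a KO 1 to 4. The Dnmt3a KO libraries of run 2 stood highest, and no Rosa KO library reached those of run 1 (log2 fold change 2.04, SE 0.36, adjusted p = 0.00881, and 1.77 within run 1, adjusted p = 0.113). Kbtbd11, a Kelch and BTB domain gene, was at 13.6 to 45 CPM in Rosa KO and 67.7 to 130 CPM in Dnmt3a KO (log2 fold change 1.38, adjusted p = 0.0452). Nabp1, a single-strand DNA binding protein, was at 432 to 495 CPM in Rosa KO and 218 to 296 CPM in Dnmt3a KO and fell by 1.01 (adjusted p = 0.00152). Rab37, a small GTPase of secretory vesicles, fell by 1.09 (adjusted p = 0.0388), and Bcl2l11, which encodes the pro-apoptotic protein BIM, fell by 1.04 (adjusted p = 0.0429). Both of the last calls were lost without Rosa KO 1, at log2 fold changes of -0.88 (adjusted p = 0.196) for Rab37 and -0.995 (adjusted p = 0.133) for Bcl2l11. Kbtbd11 (1.37, adjusted p = 0.107) and Nabp1 (-0.89, adjusted p = 0.0507) were lost there as well. Rab37 held in 1 of the 9 fits with a library left out (without Rosa KO 5), and Bcl2l11 and Kbtbd11 in 1 each (without Rosa KO 3). Over the lost fits the adjusted p reached 0.196 for Rab37, 0.212 for Bcl2l11 and 0.138 for Kbtbd11, and none of the 4 passed within run 1 (adjusted p from 0.06 to 0.324).

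No gene of the methylation machinery and no germline, imprinted or Polycomb gene passed. In lists of this size, no call is near the 0.216% of all tested genes. Of 20 tested genes of the methylation machinery, 0 passed by edgeR or DESeq2 and 1 had an unadjusted p under 0.05. Over all tested genes, 8.03% had such a p. The maintenance enzyme Dnmt1 (log2 fold change 0.06, adjusted p = 0.972), the other de novo enzyme Dnmt3b (0.65, adjusted p = 0.811) and the oxidases Tet1 (-0.39, adjusted p = 0.96), Tet2 (-0.44, adjusted p = 0.715) and Tet3 (-0.22, adjusted p = 0.92) did not pass. Of 25 germline genes that promoter methylation silences, 6 had enough counts to test, 0 passed by edgeR or DESeq2 and 2 had an unadjusted p under 0.05, both lower. The summed germline level, untested members included, was 8.6 to 16.4 CPM in Rosa KO and 11.6 to 16.4 CPM in Dnmt3a KO. Among untested members, the highest raw count of Sycp2 in a library was 1 in Rosa KO and 32 in Dnmt3a KO. The others reached at most 6 in either group. Of 31 imprinted genes, 15 were tested, 0 passed by edgeR or DESeq2, and 1 had an unadjusted p under 0.05. Of the 15, 14 had a negative log2 fold change, with a median of -0.60. Some were near the floor, such as Rian (means of 0.44 CPM in Rosa KO and 0 in Dnmt3a KO). Without the run term the median was -0.15, with 5 positive. All 31 summed to 1150 to 1850 CPM in Rosa KO and 1440 to 1680 CPM in Dnmt3a KO. Among members not tested, the highest raw count in a library was 21 in Rosa KO and 229 in Dnmt3a KO for Cdkn1c. In the same order it was 6 and 47 for Sgce, 0 and 44 for Plagl1, 23 and 0 for Igf2 and 16 and 0 for Phlda2. Of 23 tested Polycomb genes, which act in a parallel silencing pathway, 0 passed by edgeR or DESeq2, 1 had an unadjusted p under 0.05, and the median was -0.07.

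Cell cycle genes separated the Dnmt3a KO libraries by run. The 25 mitosis genes summed to 1560 to 2000 CPM in Rosa KO, to 4100 and 4080 CPM in Dnmt3a KO 1 and 2 and to 1190 and 1990 CPM in Dnmt3a KO 3 and 4. The run 1 libraries of Dnmt3a KO were thus above every Rosa KO library and those of run 2 were not. All 25 had a positive log2 fold change, with a median of 0.80 and of 1.12 within run 1. Of them 0 passed by edgeR, 6 had an unadjusted p under 0.05 (8.03% over all tested genes) and DESeq2 called 1. Ccnb2, a mitotic cyclin, came nearest (log2 fold change 1.496, adjusted p = 0.0564). Of 25 replication and nucleotide supply genes, 1 rose, a share of 4% against 0.216% of all tested genes. This was Dut, which removes dUTP from the nucleotide pool. It was at 43.2, 67.2, 49.5, 47 and 60 CPM in Rosa KO 1 to 5 and at 91.6, 82.9, 39.2 and 56.3 CPM in Dnmt3a KO 1 to 4. It overlapped between groups and was high only in the run 1 libraries of Dnmt3a KO (log2 fold change 1.23, adjusted p = 0.0257, and 0.34 without the run term, adjusted p = 0.843). The Dut call was lost within run 1 (1.01, adjusted p = 0.519) and without Rosa KO 1 or 4 or Dnmt3a KO 1, 2 or 4 (adjusted p from 0.0528 to 0.112).

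Metabolic and ribosomal genes gave no call, which in lists of this size is near the 0.216% of all tested genes. Of 35 cytosolic ribosomal protein genes, 0 passed by edgeR or DESeq2 and 13 had an unadjusted p under 0.05 (8.03% over all tested genes). Their median log2 fold change was 0.34 with the run term and -0.25 without it, so their direction depends on that term. Of 20 glycolysis genes and 30 oxidative phosphorylation genes, 0 passed by edgeR or DESeq2, and 6 and 3 had an unadjusted p under 0.05. The 3 of 30 lay near the share of 8.03% over all tested genes. Of 35 interferon response genes, 1 rose (Cxcl10, a share of 2.86% against 0.216% of all tested genes), and the median was 0.08.

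Immediate early genes, which report recent stimulation and also handling of cells, summed to 1740 CPM in Rosa KO 1, 3450 to 3740 CPM in Rosa KO 2 to 5 and 1360 to 1700 CPM in Dnmt3a KO. The control of run 1 lay next to the Dnmt3a KO libraries and the controls of run 3 well above them. Of 22 tested members 0 passed by edgeR, 5 had an unadjusted p under 0.05 (8.03% over all tested genes) and DESeq2 called 1 lower. The median log2 fold change was -0.66 and within run 1 it was -0.05. Junb, an AP-1 subunit, was at 29.7 CPM in Rosa KO 1, 108 to 159 CPM in the other Rosa KO libraries and 15.1 to 27.4 CPM in Dnmt3a KO (log2 fold change -1.24, adjusted p = 0.346).

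Transcripts of other cell types were present in both groups. The 18 B cell markers summed to 1760 CPM in Rosa KO 1, 6630 to 7430 CPM in Rosa KO 2 to 5 and 1850 to 5510 CPM in Dnmt3a KO, and 0 of 18 passed by edgeR or DESeq2 or at an unadjusted p under 0.05. The 16 monocyte and macrophage markers summed to 807 to 1590 CPM in Rosa KO and 607 to 1310 CPM in Dnmt3a KO. Of these 1 fell, Itgam, a share of 6.25% against 0.216% of all tested genes. Erythroid and platelet markers summed to 752 CPM in Rosa KO 1 and 526 and 605 CPM in the Dnmt3a KO libraries of the same run, and to 69.5 to 139 CPM in all other libraries of the 2 groups. Plasma cell markers (669 to 902 and 346 to 869 CPM in Rosa KO and Dnmt3a KO), neutrophil markers (100 to 263 and 62.6 to 438 CPM), dendritic cell markers (204 to 311 and 193 to 224 CPM) and gamma delta T cell markers (up to 2.14 and up to 5.91 CPM) overlapped between the groups. Cd4 was at 28.1 CPM in Rosa KO 1, 2.87 to 5.06 CPM in the other Rosa KO libraries and 52.8 to 99.5 CPM in Dnmt3a KO. These ranges did not overlap, but the log2 fold change of 2.93 had a wide error (SE 0.96, adjusted p = 0.398), and the 10 CD4 and regulatory T cell markers together summed to 186 to 298 CPM and 250 to 416 CPM. With the levels of B cell, monocyte and erythroid markers as covariates, 24 genes passed, 23 of them among the 30.

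Dnmt3a KO was then compared directly with the other knockouts, in contrasts that hold no Rosa KO library. Against Asxl1 KO, in which a Polycomb deubiquitinase subunit was targeted, 49 of 13881 genes passed (0.353%), 11 higher (0.0792%) and 38 lower (0.274%) in Dnmt3a KO. Against Tet2 KO, in which an oxidase of 5-methylcytosine was targeted, 13 passed (0.0937%), 3 higher (0.0216%) and 10 lower (0.072%). Most of the called set did not pass in either: 5 of the 30 passed against Asxl1 KO and 3 against Tet2 KO.

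Entpd1, Gpr55, Rgs1 and Fasl were lower in Dnmt3a KO than in Asxl1 KO, and Ttn was higher. Gpr55 was at 97.8, 40.6, 36.4 and 43.2 CPM in Asxl1 KO 1 to 4, all above the Dnmt3a KO libraries (log2 fold change -2.49, adjusted p = 0.00303), while in Tet2 KO it was at 2.22 to 7.74 CPM. Rgs1 was at 241 to 556 CPM in Asxl1 KO, also without overlap (log2 fold change -1.17, adjusted p = 0.00451). For Entpd1 and Fasl the log2 fold changes were -0.98 (adjusted p = 0.00509) and -0.88 (adjusted p = 0.034). Ttn was at 24.7, 128, 44.7 and 33.3 CPM in Asxl1 KO 1 to 4, so that Asxl1 KO 2 of run 2 lay within the Dnmt3a KO range (log2 fold change 1.74, adjusted p = 0.0287). Of passing genes whose higher group averaged 5 CPM or more, the lowest by fold were Lcn4, a lipocalin (-2.68), Sept4, a septin (-2.54), and Gpr55, and the highest were Rapgef4, a cAMP-regulated exchange factor (4.11), Ifrd1, an interferon-related regulator (1.81), and Ttn.

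Gzma, Klra9 and Klrk1 were lower in Dnmt3a KO than in Tet2 KO. Gzma was at 1855, 2183, 1778 and 1446 CPM in Tet2 KO 1 to 4, all above the Dnmt3a KO libraries (log2 fold change -0.996, adjusted p = 0.0237), and at 561 to 749 CPM in Asxl1 KO. Klra9 was at 55.6 to 87.5 CPM in Tet2 KO (log2 fold change -2.12, adjusted p = 0.0169). In Asxl1 KO Klra9 was at 19.6 to 48 CPM, which overlapped the Dnmt3a KO libraries, and that direct contrast did not pass (log2 fold change -0.71, adjusted p = 0.458). For Klrk1 the log2 fold change was -1.12 (adjusted p = 0.0392). Above the same CPM limit, the lowest passing genes by fold were Klrb1f, an NKR-P1 receptor (-2.46), Klra9 and Ccr2, a chemokine receptor of inflammatory migration (-1.73). Ubash3b, a phosphatase that damps T cell receptor signals (1.55), Twsg1, a modulator of BMP ligands (1.28), and Xdh, xanthine dehydrogenase (1.25), were the 3 that were higher.

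Each knockout was set beside the same Rosa KO libraries for the 2 genes of the opposed programmes, so these values share their controls. Tcf7 had log2 fold changes of 1.79 in Dnmt3a KO, 1.94 in Asxl1 KO and 1.95 in Tet2 KO, and between Dnmt3a KO and the others it was -0.15 (SE 0.29) and -0.17 (SE 0.29). Zeb2 had log2 fold changes of -1.69, -2.27 and -1.67 in the same order, and between Dnmt3a KO and the others it was 0.58 (SE 0.21, adjusted p = 0.295) and -0.02 (SE 0.21). These direct differences did not pass the test.

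**Figure D5:**
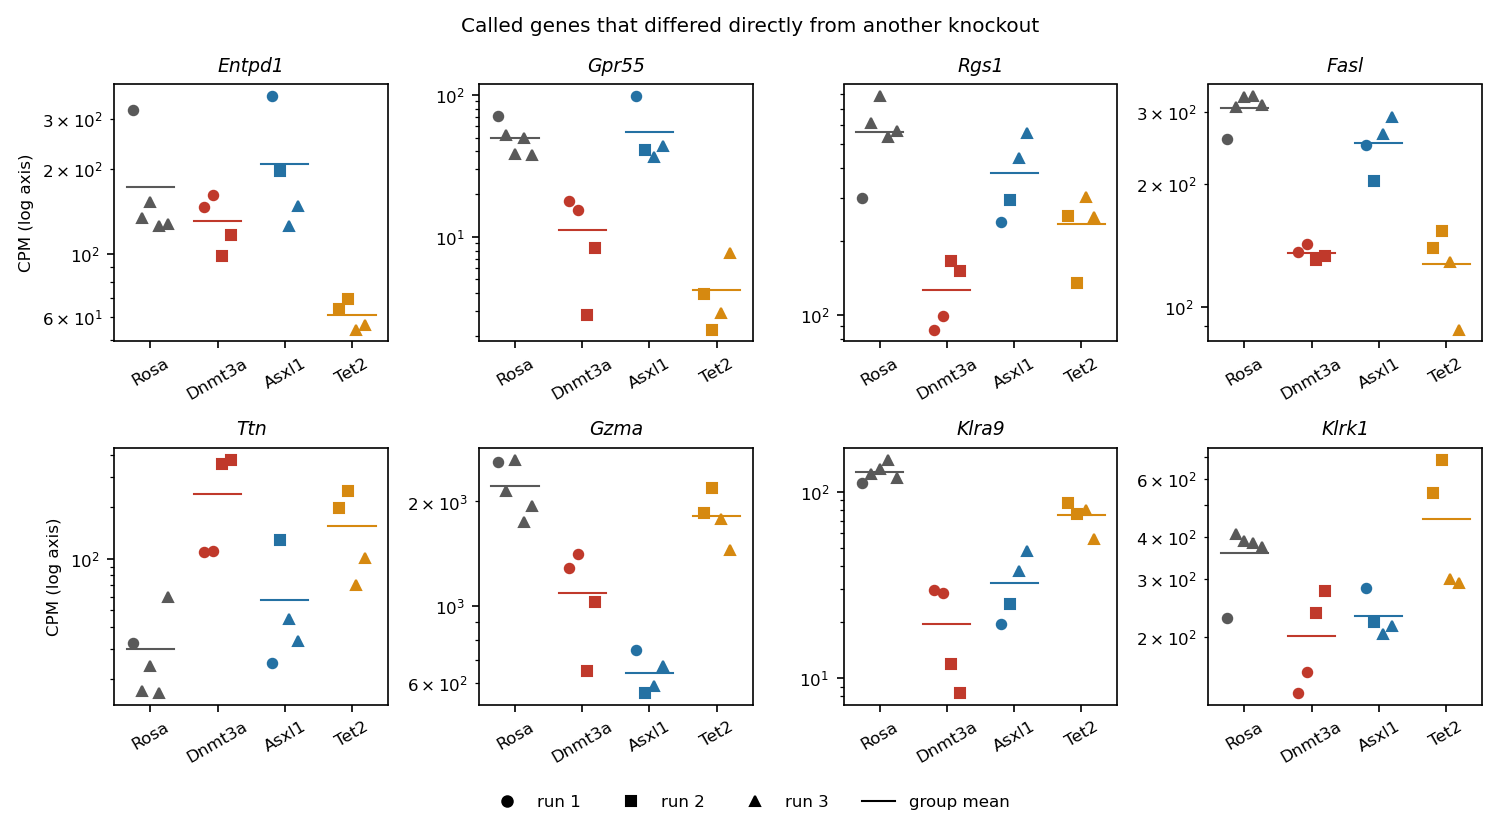
CPM on a log axis in all 17 libraries for the 8 genes of the called set that passed a direct contrast of Dnmt3a KO with Asxl1 KO (Entpd1, Gpr55, Rgs1, Fasl, Ttn) or with Tet2 KO (Gzma, Klra9, Klrk1). Symbols mark the run, lines the group mean. Gpr55 and Fasl are low in Dnmt3a KO and Tet2 KO, while Klra9 has its lowest mean in Dnmt3a KO but overlaps there with Asxl1 KO.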

How the data were processed

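Raw counts per gene were deposited by the authors, 1 table for each library with 24594 genes. Build mm10, DESeq2 1.26.0 and STAR 2.5.3a stand in the submitters' processing notes without their roles. The counting tool, and whether it used strand, is not given in the sources used here, so overlapping genes and near-identical paralogs are uncertain. The molecule label reads genomic DNA, while the protocols describe RNA and a stranded total RNA kit. Totals were 6625833 to 40701203 counts, which bounds counting error only, and over 16 pairs of libraries of the same group a chi-square per degree of freedom of 35 to 220 left no pair within sampling noise.

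After TMM scaling, counts of all 17 libraries were tested in edgeR 4.0.16 (R 4.3.3; quasi-likelihood, robust, group and run as terms, 11 residual degrees of freedom), after filterByExpr (minimum count 10, total 15) left 13881 genes. P-values were adjusted by Benjamini-Hochberg over those genes with a threshold of 0.05, and the common biological coefficient of variation was 0.604. The standard error is the log2 fold change over the root of F. The procedure was tested on simulated data. DESeq2 1.42.0, RLE scaling, no filter, no run term, a replicate block, marker covariates and leaving out libraries were tried as alternatives. The fits without both run 2 libraries of Dnmt3a KO, with 3 marker covariates and without each Asxl1 KO or Tet2 KO library were chosen after seeing the data.

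Named genes were Dnmt3a, every gene that passed (predicted genes and Rik clones by number only), 17 T cell genes and 5 DNA methyltransferases and Tet oxidases whatever their value, up to 3 members of each list, called genes that passed a direct contrast, and the 3 lowest and 3 highest passing genes of each by fold whose higher group averaged 5 CPM or more; 2 of the named genes are not reported here. The members and gene lists were chosen with earlier results of these data known. Of the identifiers, 24570 matched RefSeq on GRCm38.p6, the assembly of mm10. A promoter window was used where its start lay within 50 bases of the outer end of the gene.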

Additional observations from a re-analysis of the deposited data

Results flagged for a closer look

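A library was listed where its distance to the next library of its group, over the range of the group, was above the 95% limit of Dixon's test, on log2(CPM + 0.5). Over 117 named genes this gave 234 groups, of which 27 were beyond the limit, and chance alone gives about 1 in 20. Rosa KO 1, the only control of run 1, was the library in 21 of the 27.

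Among genes that passed against Rosa KO, Rosa KO 1 was highest for Entpd1 (322 CPM, others 125.3 to 153) and Tcf7 (102, others 14.2 to 24.6). It was lowest for Fasl (257, others 308 to 327), Il18rap (472, others 956 to 1130), Klrb1c (108, others 234 to 266) and Klrk1 (229, others 373 to 410). In these genes other than Entpd1, its level lay on the side of the Dnmt3a KO libraries.

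Among genes that did not pass, Rosa KO 1 was highest for Lag3 (95.6 CPM), Tox (1140), Cd44 (461), Dnmt1 (353), Gnas (662), Cd4 (28.1), Elane (0.967) and the erythroid genes Hbb-bt (218) and Hba-a1 (296). It was lowest for Ccr7 (5.59 CPM), Ifng (81.9), Junb (29.7) and the B cell genes Fcrla (10), Blk (4.78) and Ebf1 (10.5).

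Other libraries stood apart in 6 genes. Rosa KO 2 was highest for Kdm6b (54.5 CPM) and Cd163l1 (1.74), and Rosa KO 3 for Atp5b (695). Dnmt3a KO 3 was highest for Sycp3 (1.06 CPM), Dnmt3a KO 1 for Ly6g (4.18), and Dnmt3a KO 2 was lowest for Klf6 (313).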

How the results depend on the processing

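Against Rosa KO, 5 genes were called higher and 25 lower. These became 3 and 16 without the run term (15 genes shared with the 30), 57 and 93 with DESeq2 (30 shared), 49 and 76 with no filter on low counts (30 shared) and 1 and 7 without both run 2 libraries of Dnmt3a KO. Over the 9 libraries alone they were 22 and 21 (13 shared), so the split by direction depends on the libraries in the fit. Among those 9, only run 1 holds both groups, so the fold changes of that fit come from run 1. They were 5 and 31 with RLE scaling, 5 and 23 with the B cell level as covariate and 4 and 20 with 3 marker levels. With each of the 9 libraries left out in turn they ran from 2 to 9 higher (2 without Dnmt3a KO 4, 9 without Rosa KO 1, and 3 without Rosa KO 4, Dnmt3a KO 1 or Dnmt3a KO 2) and from 18 to 27 lower. The 49 genes against Asxl1 KO became 6 without the run term, 220 with DESeq2, 309 without the filter, 24 with the B cell covariate, 25 with 3 marker covariates and 11 to 236 with libraries left out. They were 11, 16 and 20 without Dnmt3a KO 1, 2 and 3 and 19, 236, 26 and 27 without Asxl1 KO 1 to 4. The 13 genes against Tet2 KO became 1, 73, 66 and 4 without the run term, with DESeq2, without the filter and with 3 marker covariates, and 2 to 11 with libraries left out, namely 6, 2 and 5 without Dnmt3a KO 2, 3 and 4 and 2, 2 and 6 without Tet2 KO 1, 2 and 3. Of the 29 genes named by symbol, 16 passed in all 9 fits with a library left out, and none changed sign in any alternative run; the causes of these shifts were not tested.

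With the replicate number as a block, edgeR called 0 genes higher and 0 lower against Rosa KO (850 at an unadjusted p under 0.05; DESeq2 was not run with the block), 2 against Asxl1 KO and 1 against Tet2 KO. Same-numbered Dnmt3a KO and Rosa KO libraries deviated together with correlations of -0.03 to 0.09, and 1 of 4 correlated best with its own number. Of the same-numbered libraries only those numbered 1 shared a run, so these correlations cannot tell whether the numbers pair the samples. Under the block Pdcd1 (-0.15), Ccr7 (0.19), Tet3 (0.10) and Zbtb16 (0.064) changed sign.

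Log2 fold changes of 28 named genes that did not pass changed sign in at least 1 alternative. Without the run term these were Dnmt3a 0.44, Havcr2 0.11, Tox 0.58, Lef1 0.0052, Tet1 0.19, Tet2 0.15, Tet3 0.51, Jarid2 0.021, Phc1 0.24, Ifi27l2a -0.11, Gapdh -0.10, Cox5a -0.013, Rpl10 -0.30, Rpl10a -0.43, Rps2 -0.25, Fcrla -0.48, Blk -0.37, Ebf1 -0.54, Prdm1 0.031, Derl3 -0.57, Irf4 -0.17, Bst2 -0.13, Hbb-bt 0.43, Hba-a1 0.63 and Zbtb16 1.49. Within run 1 they were Pdcd1 -0.31, Ccr7 2.27 and Tet1 0.49. Over the 9 libraries, where run 1 also sets the fold change, they were Pdcd1 -0.30, Ccr7 2.27 and Tet1 0.49. With the B cell covariate they were Tox 0.075 and Zbtb16 1.11, with 3 marker covariates Dnmt3a 0.10, Tox 0.10 and Zbtb16 2.59, and without the filter Tox 0.0037. Without Rosa KO 1 they were Dnmt3a 0.22, Tox 0.03, Fcrla -0.12, Blk -0.23, Ebf1 -0.27 and Zbtb16 3.21. With 1 library left out at a time, the values ran from -0.19 (without Rosa KO 3) to 0.22 for Dnmt3a, from -0.047 (Dnmt3a KO 3) to 0.042 (Dnmt3a KO 1) for Tox, from -0.024 (Dnmt3a KO 1) to 0.12 (Dnmt3a KO 3) for Dnmt1, from -0.070 (Dnmt3a KO 2) to 0.34 (Dnmt3a KO 4) for Irf4, and from -1.28 (Dnmt3a KO 1) to 3.21 for Zbtb16. Without Dnmt3a KO 4 the highest values of Fcrla, Blk and Ebf1 were 1.42, 1.19 and 1.39. Without both run 2 libraries Pdcd1 was -0.022 and Tet1 0.76.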
